A study of Mus musculus with 4 samples.

Results

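The genes described here are 36 mouse genes of the ATF4 amino acid response, measured by RNA sequencing in cultured neural stem and progenitor cells. They were chosen by name, as genes whose Ensembl identifiers carry one of 36 symbols in the GENCODE M21 annotation. All 36 symbols were found among the 34866 identifiers of the deposited table, in 37 rows, since Ddit3 has a second identifier (a short overlapping locus that was at 0 in all 4 libraries and was left out). All 36 genes passed the filter on low counts, among 14050 tested genes. The triple knockdown group consisted of wild-type cells that received 3 lentiviral vectors together, carrying short hairpin RNAs against Phf21b, Zfp7 and Zfp57, each at a multiplicity of infection of 10. The shControl group received 1 vector with a control hairpin at a multiplicity of infection of 30. In both groups the cells came from the dorsal telencephalon of mouse embryos at E11.5, were transduced when they were plated, and grew with basic fibroblast growth factor until day 5 as neurospheres in suspension. Each group had 2 libraries, and nothing in the labels says that these came from separate cultures or litters, so each p-value reflects the spread among 4 libraries, and that spread may be technical. The mouse strain and any pooling of embryos are not stated in the labels. By their names the control and Phf21b vectors are of a CS-EG type, while those against Zfp7 and Zfp57 are of a pLV-EG type. Effects of vector number and backbone therefore cannot be told apart from effects of the hairpins against the targeted genes.

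ATF4 is a transcription factor of the basic leucine zipper family. When a cell runs short of an amino acid, or its endoplasmic reticulum, haem supply or mitochondria are disturbed, one of several kinases phosphorylates the translation factor eIF2; general protein synthesis then slows while the Atf4 transcript is translated more. ATF4, often paired with a C/EBP protein, binds C/EBP-ATF response elements (CAREs) and switches on genes for amino acid synthesis, amino acid uptake and tRNA charging, together with regulators such as Ddit3 (CHOP) and Trib3. In dividing progenitors the same enzymes supply serine and one-carbon units for nucleotide synthesis.

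The libraries held 17901386 and 15170491 estimated counts in the triple knockdown and 20779211 and 14694387 in shControl. Levels are given in CPM, the usual unit of counts corrected for depth, with library totals scaled by the trimmed mean of M-values (TMM). Over all genes, 76 were higher and 116 lower in the triple knockdown by edgeR's quasi-likelihood test with a Benjamini-Hochberg adjusted p under 0.05, and 77 and 28 when libraries were scaled by their size alone. Transcripts of the targeted genes measured 10.7 and 9.32 CPM in the triple knockdown against 14.6 and 11.8 CPM in shControl for Zfp57, 5.49 and 6.45 against 7.25 and 7.36 CPM for Phf21b, and 1.97 and 0.977 against 1.67 and 2.25 CPM for Zfp7. Both knockdown libraries were below both controls for Zfp57 and Phf21b and overlapped them for Zfp7, and 0 of these 3 differences passed the threshold (edgeR adjusted p = 0.341, 0.644 and 0.80). The progenitor markers Sox2, Nes, Pax6 and Fabp7 were present in all 4 libraries. Fabp7 measured 20100 and 22770 CPM in the triple knockdown and 22440 and 27560 CPM in shControl. Neuronal markers were present too, with Stmn2 at 272 and 253 CPM in the triple knockdown and 328 and 308 CPM in shControl. Among the astrocyte markers, Gfap was at 0 in 1 library of each group and under 0.1 CPM in the others. Sparcl1 measured 19.7 and 20.5 CPM in the triple knockdown and 34.8 and 31.3 CPM in shControl, and Aldh1l1 and Aqp4 were also detected.

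Of the 36 response genes 4 rose in the triple knockdown, and 0 fell. Those that rose were Eif4ebp1, an inhibitor of cap-dependent translation, and 3 enzymes, Mthfd2, Cth and Asns, with changes between 1.52-fold and 1.96-fold. The other 32 did not pass the test, among them Atf4 itself. The 4 genes are 11.1% of the 36, whereas 0.541% of all tested genes were called higher and 0.826% lower. At an unadjusted p under 0.05, 8 genes were higher and 0 lower, against 5.14% and 6.85% of all tested genes. Both knockdown libraries lay above both control libraries for 12 genes (19.6% of all tested genes did so) and below both for 4 (21.7%), and they overlapped for 20. The log2 fold change was above 0 for 26 genes (72.2%), against 48.9% of all tested genes. The log2 fold changes ran from -0.26 for Slc1a5 to 0.97 for Eif4ebp1, with a median of 0.13 over the 36 genes and of -0.01 over all tested genes. Since the genes were listed with earlier results of these data known, no test was run over the list.

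**Figure D1:**
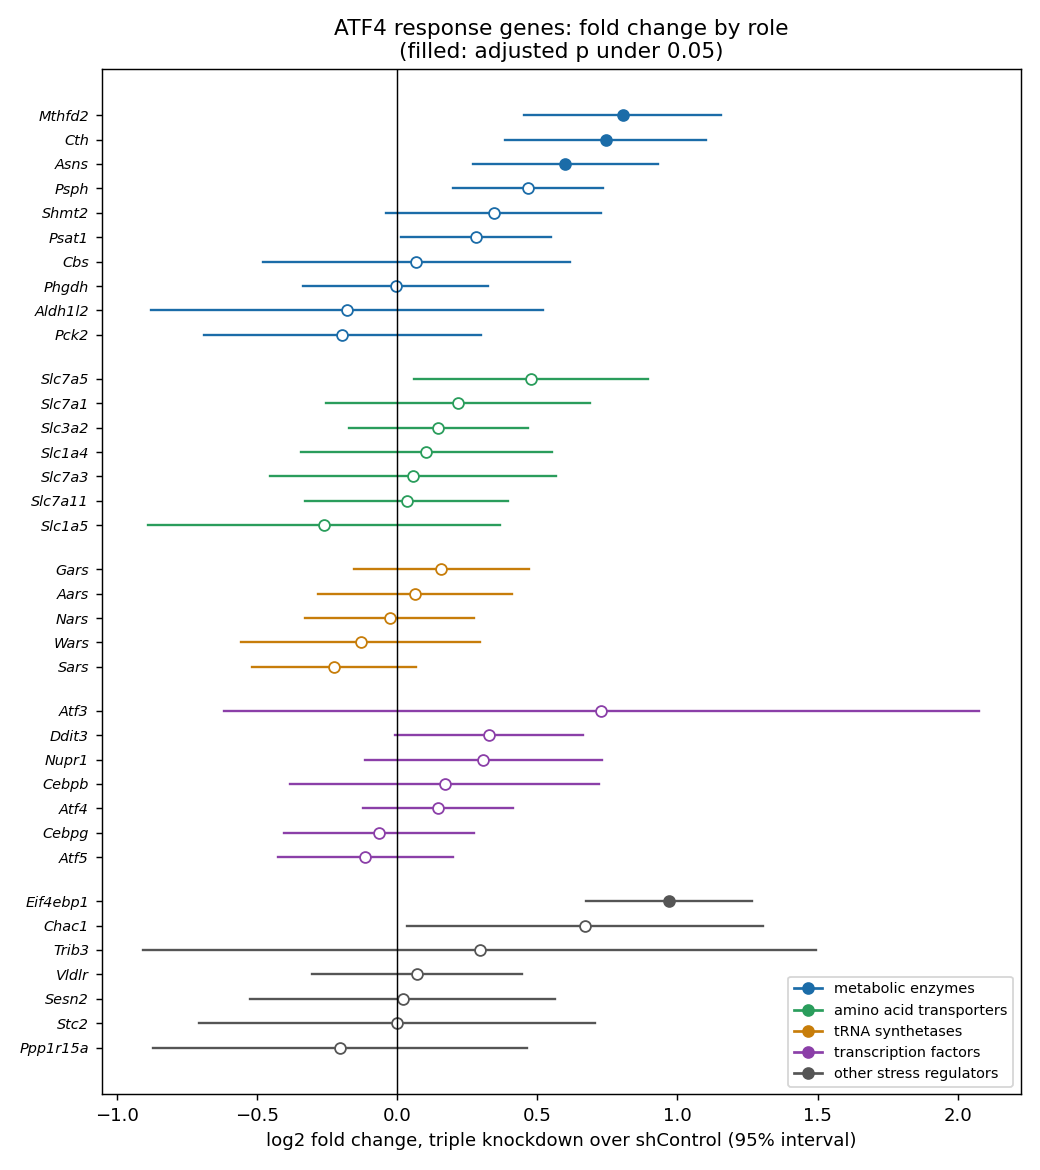
Log2 fold change of each of the 36 genes, triple knockdown over shControl, with its 95% interval (2 libraries per group), sorted within 5 roles. Filled points passed an adjusted p under 0.05: Mthfd2, Cth and Asns among the enzymes and Eif4ebp1 among the other regulators.

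The change was largest for Eif4ebp1 (ENSMUSG00000031490.6, chromosome 8, 27260329 to 27276674 in GRCm38). It encodes 4E-BP1, which holds the cap-binding factor eIF4E away from messenger RNA until the kinase mTORC1 phosphorylates it. It measured 45.3 and 42.7 CPM in the triple knockdown against 24.5 and 20.2 CPM in shControl. The groups were far apart, with 850 and 656 estimated counts behind the knockdown values and 528 and 269 behind the control values. It rose 1.96-fold (95% interval 1.59 to 2.41; edgeR adjusted p = 4.77e-06), which is 0.97 on the log2 scale with an SE of 0.15, and the gene stood at rank 17 of all 14050 tested genes by p. Of its 31-mers, 6.60% also occur in transcripts of other genes. It passed the threshold in all 14 alternative fits.

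Among the 10 metabolic enzymes 3 rose, 0 fell and 7 did not pass. Mthfd2 (ENSMUSG00000005667.8, chromosome 6, 83305691 to 83325908), the mitochondrial enzyme that oxidises methylene-tetrahydrofolate made from serine, measured 19.5 and 17.1 CPM in the triple knockdown against 11.52 and 9.32 CPM in shControl. The change was 1.75-fold (95% interval 1.37 to 2.23; SE of the log2 value 0.18, edgeR adjusted p = 0.00392). Cth (ENSMUSG00000028179.12, chromosome 3, 157894248 to 157925077) encodes cystathionine gamma-lyase, the enzyme that releases cysteine at the end of transsulfuration. It measured 16.0 and 17.7 CPM against 11.4 and 8.49 CPM in shControl, a change of 1.67-fold (95% interval 1.31 to 2.14; log2 SE 0.18, edgeR adjusted p = 0.0117). Asns (ENSMUSG00000029752.12, chromosome 6, 7675169 to 7693254) encodes asparagine synthetase, which makes asparagine from aspartate and glutamine. It measured 21.7 and 22.2 CPM against 16.0 and 12.7 CPM in shControl, a change of 1.52-fold (95% interval 1.21 to 1.91; log2 SE 0.17, edgeR adjusted p = 0.042). For all 3 enzymes both knockdown libraries lay above both controls, and the shControl replicates differed from each other by more than the knockdown replicates did for Cth and Asns. Without the filter on low counts, edgeR tested 22122 genes and still called all 3 enzymes (edgeR adjusted p = 0.00256, 0.00996 and 0.048 for Mthfd2, Cth and Asns). DESeq2, run on 22122 genes without the filter on low counts, did not call any of the 3 (adjusted p = 0.101, 0.227 and 0.363 for Mthfd2, Cth and Asns), and all 3 were lost without triple knockdown replicate 1 (edgeR adjusted p = 0.406, 0.182 and 0.53). Asns was also lost without shControl replicate 2 (0.0996) and when library size alone set the scale (0.143). Leaving out triple knockdown replicate 2 removed the calls of Asns (0.39) and Cth (0.322).

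Phgdh, Psat1 and Psph catalyse the successive steps of serine synthesis from 3-phosphoglycerate, and 0 of these 3 passed the threshold. Psph, the last step, measured 80.7 and 76.8 CPM in the triple knockdown against 59.4 and 54.5 CPM in shControl, or 1.38-fold (95% interval 1.147 to 1.66). Its edgeR adjusted p was 0.0577, and it passed with the relative log expression (RLE) size factors (0.0479) and without shControl replicate 1 (0.0239); 10.4% of its exonic bases overlap the antisense gene Cct6a. Psat1, the middle step, measured 120.1 and 123.6 CPM against 107.8 and 92.3 CPM in shControl (1.22-fold, edgeR adjusted p = 0.375; unadjusted p = 0.0387). Phgdh, the first step, measured 20.0 and 17.2 CPM against 21.2 and 15.9 CPM, with overlapping libraries and a fold change of 0.996 (95% interval 0.792 to 1.25; edgeR adjusted p = 0.994). Its value is uncertain, because 55.9% of its 31-mers also occur in other genes, and reads from shared stretches are assigned by estimation. The 3 genes that share most with it, Gm7901, Gm9347 and Gm8341, held at most 5.31 estimated counts in a library.

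Shmt2, which splits serine into glycine and a one-carbon unit in mitochondria, just upstream of Mthfd2, measured 12.9 and 10.4 CPM in the triple knockdown against 10.6 and 7.44 CPM in shControl (1.27-fold, edgeR adjusted p = 0.486). The groups overlapped. Aldh1l2, the mitochondrial enzyme that oxidises formyl-tetrahydrofolate, measured 2.13 and 2.02 CPM against 2.74 and 1.88 CPM, with 14.1% of its exonic bases overlapped by an antisense gene. Cbs, which forms cystathionine one step before Cth, measured 4.16 and 3.19 CPM in the triple knockdown against 3.58 and 3.46 CPM in shControl (1.05-fold, 95% interval 0.718 to 1.53, edgeR adjusted p = 0.958). Pck2, the mitochondrial phosphoenolpyruvate carboxykinase, measured 3.94 and 4.50 CPM against 5.02 and 4.58 CPM, below control in both knockdown libraries (edgeR adjusted p = 0.832). The wide intervals of Cbs, Aldh1l2 and Pck2 come with 25 to 108 estimated counts per library.

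**Figure D2:**
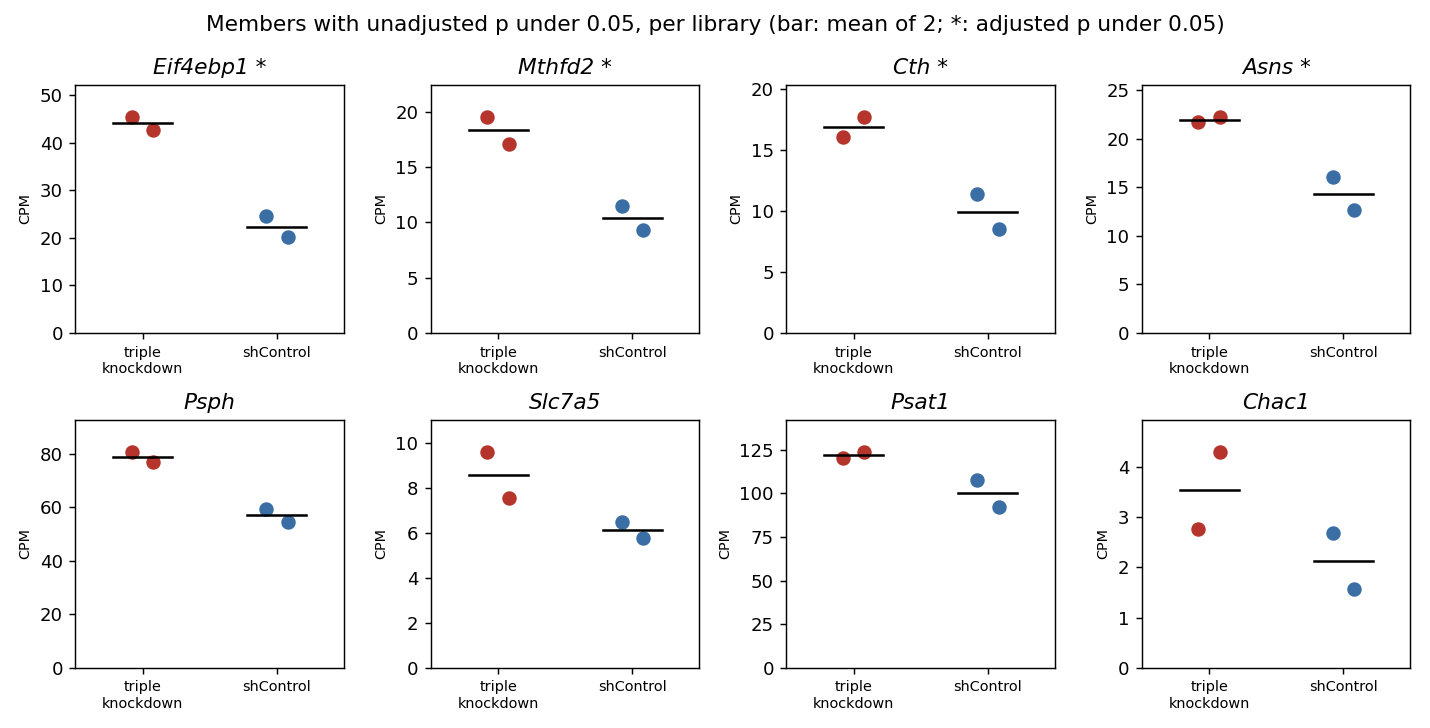
CPM in each library, on axes that start at 0, for the 8 genes with an unadjusted p under 0.05, triple knockdown on the left and shControl on the right; bars are means of 2 libraries. The knockdown libraries lie above both controls in all 8 panels, by a wide gap for Eif4ebp1 and by a small one for Chac1, where they measured 2.77 and 4.30 CPM against 2.69 and 1.58 CPM.

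The letters of the CARE core, TGATGNAA, were searched on both strands in RefSeq promoter windows of GRCm38.p6, from 250 bases before to 50 bases after a gene's annotated start. Windows were found by symbol for 28 of the 36 genes. Of these, 11 genes (39.3%) held the motif, against 4.51% of all 27025 genes with a window and 3.01% of the 10558 tested genes with one. The stricter form TGATGCAA, which is contained in the first, was in 7 of the 28 genes (25.0%), against 1.03% of all genes, and the cAMP response element TGACGTCA was in 1 of 28, Ppp1r15a, against 2.03% of all genes. The 36 genes were listed as ATF4 response genes, so an excess of the CARE core may be built into that choice. It is not a result of these libraries and was not tested. Of the 4 genes that rose, Asns and Mthfd2 have a window in the table. Asns holds the motif from 23 to 16 bases before its start, and in the Mthfd2 window these letters do not occur. The other 10 genes with the motif, Pck2, Slc7a11, Slc1a4, Aars, Gars, Atf3, Nupr1, Trib3, Chac1 and Vldlr, did not pass the threshold. The 120 bases before the start are printed below, 5′ to 3′ on the gene's strand with motif matches in capitals, for both genes that rose and for 4 genes with the motif that did not pass.
Asns, chr6:7693210-7693329, - strand: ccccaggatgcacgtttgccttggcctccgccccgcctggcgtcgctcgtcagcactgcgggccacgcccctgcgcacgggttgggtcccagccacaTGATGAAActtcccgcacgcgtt
Mthfd2, chr6:83317605-83317724, - strand: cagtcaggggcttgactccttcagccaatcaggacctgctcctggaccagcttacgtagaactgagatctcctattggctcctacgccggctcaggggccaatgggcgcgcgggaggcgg
Slc7a11, chr3:50443614-50443733, - strand: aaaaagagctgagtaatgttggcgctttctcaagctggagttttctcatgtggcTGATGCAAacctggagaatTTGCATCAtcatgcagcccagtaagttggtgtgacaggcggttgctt
Aars, chr8:111033722-111033841, + strand: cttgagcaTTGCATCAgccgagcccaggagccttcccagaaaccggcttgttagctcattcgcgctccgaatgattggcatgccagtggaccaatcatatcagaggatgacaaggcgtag
Atf3, chr1:191183334-191183453, - strand: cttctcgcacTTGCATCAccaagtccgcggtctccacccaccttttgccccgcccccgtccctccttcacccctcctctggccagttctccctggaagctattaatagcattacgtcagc
Nupr1, chr7:126625471-126625590, - strand: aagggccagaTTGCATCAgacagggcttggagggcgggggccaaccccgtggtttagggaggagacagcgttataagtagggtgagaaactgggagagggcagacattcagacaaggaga
In Slc7a11 the motif stands once on each strand. Aars, Atf3 and Nupr1 hold it in reverse orientation, 112 to 105 bases before the start in Aars and 110 to 103 bases before it in Atf3 and Nupr1, and Aars has a second match after its start that is not printed.

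Of the 7 amino acid transporters 0 passed edgeR's test, 1 had an unadjusted p under 0.05, and 0 passed with DESeq2 or limma-voom. Slc7a5 (LAT1), which imports large neutral amino acids such as leucine in exchange for glutamine, measured 9.59 and 7.56 CPM in the triple knockdown against 6.50 and 5.78 CPM in shControl, both above both controls (1.39-fold, 95% interval 1.04 to 1.86, edgeR adjusted p = 0.312; unadjusted p = 0.0252). Its partner chain Slc3a2, which also carries Slc7a11 to the cell surface, measured 21.5 and 21.2 CPM against 20.2 and 18.3 CPM (1.11-fold, edgeR adjusted p = 0.797). Slc7a11 (xCT), which imports cystine in exchange for glutamate, measured 13.7 and 12.3 CPM against 10.7 and 14.95 CPM, so that the knockdown values lay between the controls. The cationic amino acid transporter Slc7a1 measured 6.72 and 5.93 CPM against 3.86 and 7.36 CPM in shControl, with a log2 fold change of 0.73 once shControl replicate 2 was left out and of -0.22 once shControl replicate 1 was. The remaining transporters were Slc7a3, which carries cationic amino acids, and Slc1a4 and Slc1a5, which carry small neutral amino acids including serine and, for Slc1a5, glutamine. Their log2 fold changes were 0.06, 0.10 and -0.26, with edgeR adjusted p-values between 0.818 and 0.965. The median log2 fold change of the 7 transporters was 0.10, and -0.02 without shControl replicate 1.

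The 5 cytosolic tRNA synthetases, which load amino acids onto their tRNAs, did not pass either, and 3 had a log2 fold change below 0. Sars, for serine, measured 34.4 and 31.7 CPM in the triple knockdown against 44.0 and 33.0 CPM in shControl (0.855-fold, 95% interval 0.698 to 1.05, edgeR adjusted p = 0.578). Nars, for asparagine, measured 30.4 and 30.0 CPM against 35.3 and 25.8 CPM, and Gars, for glycine, 22.7 and 28.1 CPM against 23.8 and 21.5 CPM. In both genes the groups overlapped, and the edgeR adjusted p-values were 0.971 and 0.764. Aars, for alanine, and Wars, for tryptophan, had log2 fold changes of 0.06 and -0.13. Of the exonic bases of Aars, 15.1% overlap Exosc6 and a small antisense gene, and 13.9% of its 31-mers are shared. The upper 95% bounds of the fold change lay between 1.05 for Sars and 1.39 for Gars. At an unadjusted p under 0.05, 0 of the 5 were called, and 0 by DESeq2 or limma-voom.

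Among the 7 transcription factors 0 passed edgeR's test, 0 had an unadjusted p under 0.05, and 0 passed with DESeq2 or limma-voom. Atf4 (ENSMUSG00000042406.8, chromosome 15, 80255184 to 80257541) measured 94.2 and 104.4 CPM in the triple knockdown against 97.0 and 82.2 CPM in shControl (1.11-fold, 95% interval 0.919 to 1.33; edgeR adjusted p = 0.738). Per kilobase of annotated exon it had the highest level of the 36 genes in both groups, 42.1 CPM per kb in the triple knockdown and 38.0 in shControl. Atf3, a stress-induced repressor, was among the lowest per kilobase, with 0.30 CPM per kb in the triple knockdown and 0.164 in shControl. ATF4 is controlled mainly through translation, and protein was not analysed here. Ddit3, which encodes the stress factor CHOP, measured 19.0 and 17.8 CPM against 15.7 and 13.5 CPM, both above both controls (1.25-fold, 95% interval 0.995 to 1.58, edgeR adjusted p = 0.43, unadjusted p = 0.0549). Of the exonic bases of Ddit3, 10.9% overlap other annotated genes, among them the antisense gene Mars and the second Ddit3 identifier. Atf5, a relative of ATF4, measured 21.6 and 22.4 CPM against 24.6 and 22.8 CPM, both below both controls (edgeR adjusted p = 0.849). Cebpg and Cebpb, which encode C/EBP partners of ATF4, had log2 fold changes of -0.07 and 0.17, and their groups overlapped; 20.7% of the exonic bases of Cebpb overlap the antisense gene Tmem189. Nupr1, a small stress-induced chromatin protein, measured 8.16 and 7.17 CPM against 5.99 and 6.46 CPM (1.24-fold, edgeR adjusted p = 0.614). Atf3 rested on 12 and 10 counts in the triple knockdown and 12 and 2 in shControl, and its 95% interval ran from 0.651-fold to 4.21-fold. Its log2 fold change of 0.73 became 2.04 with shControl replicate 1 left out and 0.22 with shControl replicate 2 left out.

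The other regulators besides Eif4ebp1 did not pass. Chac1, which degrades glutathione, had the largest estimate among them, 1.59-fold (95% interval 1.02 to 2.47; edgeR adjusted p = 0.377). It rested on 52 and 66 counts in the triple knockdown and 58 and 21 in shControl, and leaving out shControl replicate 1 gave a log2 fold change of 1.14, leaving out triple knockdown replicate 2 one of 0.34. Vldlr, a lipoprotein and reelin receptor, measured 9.91 and 12.6 CPM against 9.71 and 11.8 CPM. Sesn2, a leucine-binding inhibitor of mTORC1, measured 4.05 and 3.32 CPM against 3.99 and 3.23 CPM. The fold changes of Vldlr and Sesn2 were 1.05-fold (95% interval 0.81 to 1.36) and 1.01-fold (0.696 to 1.48). Ppp1r15a (GADD34), which recruits the phosphatase that resets eIF2, measured 2.13 and 2.41 CPM against 3.02 and 2.10 CPM, and Stc2, a secreted stanniocalcin, had a log2 fold change of 0.00. Trib3, a pseudokinase that restrains ATF4, rested on 16 and 9 counts against 15 and 6 in shControl (1.23-fold, 95% interval 0.534 to 2.82).

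**Figure D3:**
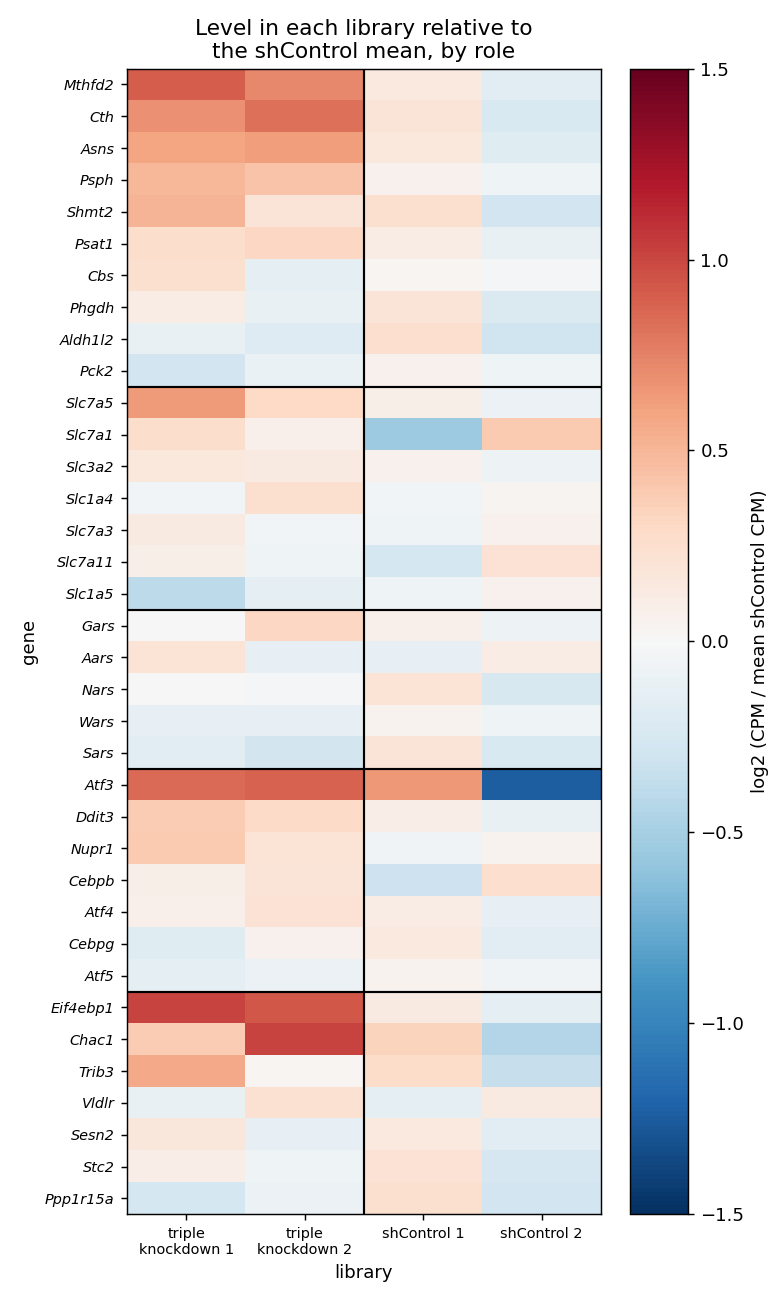
Level of each gene in each library relative to the mean of the 2 shControl libraries, as log2 of the CPM ratio, with the 5 roles divided by black lines. Red marks the higher values of Mthfd2, Cth, Asns, Psph and Eif4ebp1, among others, in both knockdown libraries. Atf3, with at most 12 counts in a library, is also red in both, and Chac1 mainly in triple knockdown replicate 2. The right column shows shControl replicate 2 as the library with the most low values.

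The 2 control libraries differed in these genes. The level was lowest in shControl replicate 2 for 21 of the 36 genes (58.3%), against 25.9% of all tested genes, and it was higher in shControl replicate 1 than in replicate 2 for 27 of 36, against 50.9% of all tested genes. All 10 enzymes were higher in shControl replicate 1, and 2 of the 7 transporters. Summed over the 10 enzymes the level was 301 and 295 CPM in the triple knockdown against 249 and 211 CPM in shControl, so both knockdown libraries exceeded the higher control. Psat1 and Psph, which did not pass the threshold, made up most of this sum in each library. Summed over the 5 tRNA synthetases the level was 111 and 110 CPM against 124 and 103 CPM, with the knockdown values between the controls. Without shControl replicate 2 the genes that rose numbered 3, and the log2 fold changes of Eif4ebp1, Mthfd2, Cth and Asns were 0.86, 0.68, 0.58 and 0.47. Without shControl replicate 1 they were 1.12, 0.98, 0.98 and 0.79, and 5 genes rose, Psph included. When triple knockdown replicate 1 was left out 1 gene rose, and when replicate 2 of that group was left out 2 did.

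**Figure D4:**
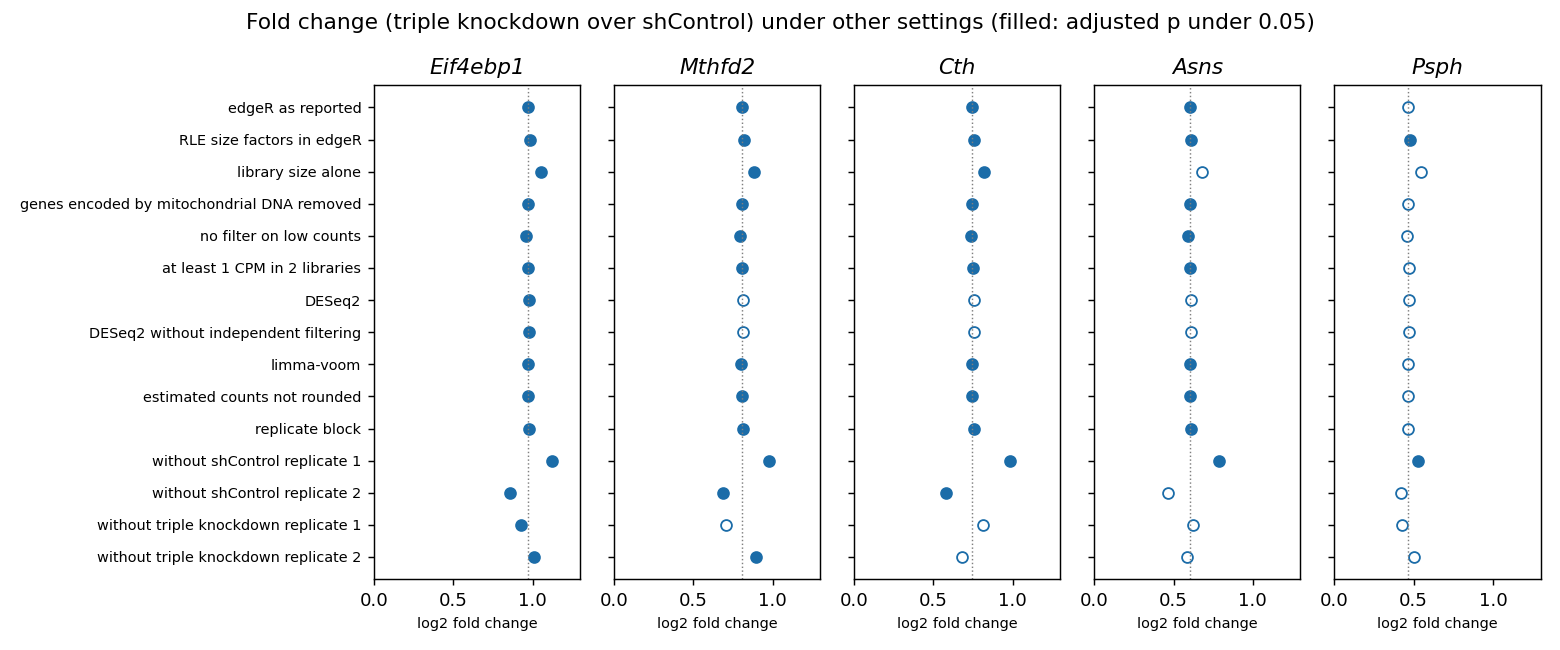
Log2 fold change, triple knockdown over shControl, of the 4 genes that rose and of Psph under each setting; filled points passed an adjusted p under 0.05 and dotted lines mark the reported value. All points lie above 0, Eif4ebp1 is filled in every setting, Mthfd2, Cth and Asns are open with DESeq2 and without triple knockdown replicate 1, among others, and Psph is filled in 2 of the 14 alternatives.

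Related genes were counted in the same fit as 9 lists, and 0 of their genes passed the threshold with edgeR, DESeq2 or limma-voom. With edgeR, 0.541% of all tested genes were higher and 0.826% lower at the threshold. The shares at an unadjusted p under 0.05 were 5.14% and 6.85%. Of 15 genes for eIF2, its kinases and its exchange factor eIF2B, 1 was higher and 1 lower at an unadjusted p under 0.05, and the median log2 fold change was 0.19. The higher one was Eif2ak2 (PKR), the double-stranded RNA-activated eIF2 kinase, at 6.77 and 6.78 CPM in the triple knockdown against 5.06 and 4.81 CPM in shControl (edgeR adjusted p = 0.409). Eif2ak2 is also counted among the interferon-stimulated genes described below. The lower one was Eif2s3x, the gamma subunit of eIF2, at 42.3 and 45.9 CPM against 65.6 and 55.1 CPM (edgeR adjusted p = 0.0784). Its value is uncertain, because 35.3% of its 31-mers also occur in other genes, Eif2s3y among them. The other subunits, Eif2s2 and Eif2s1, had log2 fold changes of 0.22 and 0.19, and the kinases Eif2ak1 (HRI), Eif2ak3 (PERK) and Eif2ak4 (GCN2) 0.19, 0.20 and -0.05.

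Of 15 other cytosolic tRNA synthetases 2 were higher and 0 lower at an unadjusted p under 0.05, against 5.14% and 6.85% of all tested genes. Their median log2 fold change was 0.10, and the 3 most abundant, Dars, Rars and Hars, had values of -0.15, 0.13 and 0.03. Of 17 mitochondrial synthetases 1 was higher and 0 lower, with a median of 0.05 and with Lars2, Rars2 and Hars2 at 0.25, -0.10 and -0.13. Of 17 other enzymes of the folate, glycine and methionine cycles 0 had an unadjusted p under 0.05, and the median was 0.12. Thymidylate synthase (Tyms) measured 110.4 and 114.7 CPM in the triple knockdown against 90.3 and 101.5 CPM in shControl, and the S-adenosylmethionine synthetase subunit Mat2a had a log2 fold change of 0.12. Mthfd2l, a mitochondrial paralogue of Mthfd2, measured 27.5 and 31.1 CPM against 30.8 and 35.01 CPM, and Mthfd1, the cytosolic counterpart, 6.13 and 6.71 CPM against 5.85 and 4.96 CPM (edgeR adjusted p = 0.727 and 0.754). So of these 3 genes Mthfd2 alone passed the threshold, and the difference between them was not tested.

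Further known ATF4 targets outside the 36 had 6 tested genes with a log2 fold change above 0 and 9 below, with a median of -0.03. At an unadjusted p under 0.05, 0 were higher and 1 lower, against 5.14% and 6.85% of all tested genes. The lower one was Ddit4 (REDD1), an inhibitor of mTORC1, at 17.6 and 18.4 CPM in the triple knockdown against 28.6 and 22.4 CPM in shControl (edgeR adjusted p = 0.0941). The autophagy receptor Sqstm1 measured 21.5 and 23.5 CPM against 30.2 and 23.4 CPM, and the glutamine transporter Slc38a2 38.4 and 41.7 CPM against 36.5 and 39.2 CPM. Among 19 other amino acid transporters, which include Slc38a2, 0 were higher and 3 lower at an unadjusted p under 0.05, the median was -0.16, and Slc1a3 and Slc38a1 had log2 fold changes of -0.01 and -0.11. Slc38a3 had the lowest log2 fold change of that list, -0.94 (edgeR adjusted p = 0.0784). It measured 2.99 and 1.89 CPM in the triple knockdown against 5.71 and 3.61 CPM in shControl. Among 19 genes of mTORC1 and amino acid sensing 0 were higher and 1 lower, the median was -0.11, and Rheb, Lamtor2 and Lamtor1 were at 0.13, 0.09 and -0.16. Among 19 endoplasmic reticulum chaperones and targets of ATF6 or XBP1 1 was higher and 0 lower, with a median of -0.01. The higher one was Manf, a secreted resident of that compartment, at 264.9 and 262.5 CPM against 209.2 and 214.1 CPM (edgeR adjusted p = 0.307), while Hsp90b1 and Pdia3 had log2 fold changes of -0.13 and -0.06. Among 12 mitochondrial chaperones and proteases 1 was higher and 0 lower, with a median of 0.02, and Hspe1, Hspd1 and Hspa9 were at 0.21, 0.36 and 0.18. The values of Hspd1 and Hspe1 are uncertain, because 50.1% and 24.8% of their 31-mers also occur in other genes. Differences between these lists and the 36 genes were not tested.

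**Figure D5:**
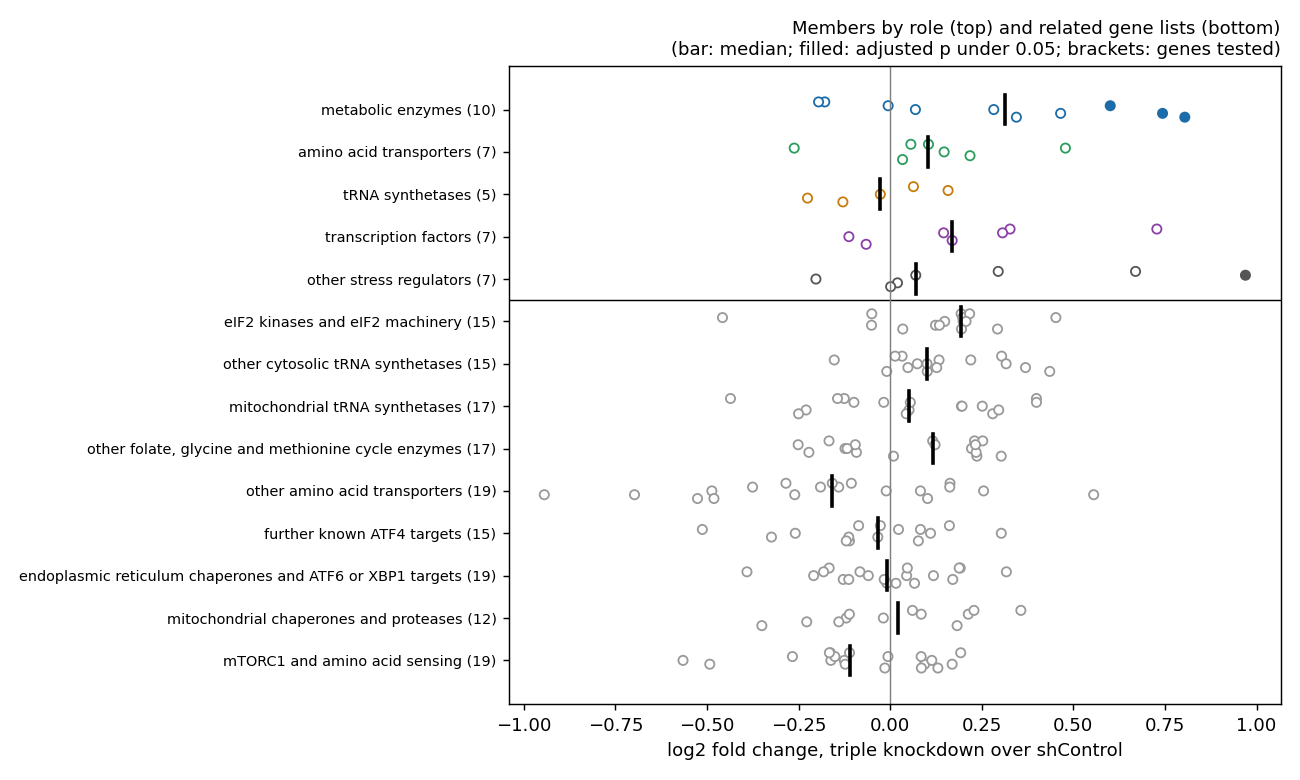
Log2 fold change, triple knockdown over shControl, of the 36 genes by role (top) and of the tested genes of 9 related lists (bottom), with each median as a bar. Filled points passed an adjusted p under 0.05; they occur among the metabolic enzymes and the other regulators, and in none of the 9 lists below.

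Other groups of genes moved between the same libraries. Of 14 tested interferon-stimulated genes 6 rose (Isg15, Usp18, Ifi27, Bst2, Rtp4 and Irf9), with Ifi27 at 25.8 and 24.4 CPM in the triple knockdown against 3.21 and 3.08 CPM in shControl. Of 6 neuronal markers 2 fell, Tubb3 and Neurod6, and the summed level of the 6 was 504 and 500.0 CPM against 667 and 611 CPM. Among 8 progenitor markers 0 passed; the summed level without regard to length was 20590 and 23300 CPM against 22970 and 28030 CPM, nearly all of it Fabp7. Of 3 tested astrocyte markers Sparcl1 fell, and the list summed to 28.6 and 30.9 CPM against 47.0 and 44.0 CPM. Of 3 tested red blood cell markers Hbb-y rose, and the list summed to 37.3 and 34.8 CPM against 23.0 and 25.4 CPM. At an unadjusted p under 0.05 in edgeR, all 3 of these red blood cell markers were higher. At that level 3 neuronal, 2 astrocyte and 2 progenitor markers were lower, and 0 of these 3 lists were higher. Of all tested genes, 5.14% were higher and 6.85% lower at that level. The oligodendrocyte lineage, microglia and myeloid, endothelium and mesenchyme lists had 0 genes past edgeR's threshold, and 1 gene of the first was lower and 1 of the second higher at an unadjusted p under 0.05. Their summed levels in the triple knockdown and shControl were 101.9 and 94.9 against 106.2 and 98.8 CPM (oligodendrocyte lineage), 20.8 and 17.9 against 12.8 and 18.9 CPM (microglia and myeloid), 4.80 and 4.82 against 3.86 and 5.18 CPM (endothelium), and 38.2 and 40.3 against 40.4 and 35.98 CPM (mesenchyme). The share of counts on the mitochondrial genome was 26.6% and 28.5% in the triple knockdown and 30.3% and 33.9% in shControl; with these genes removed the same number of response genes, 4, rose. In bulk libraries fewer cells of a type and less RNA per cell cannot be told apart, and the part of these shifts in the rise of the 4 genes was not tested.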

How the data were processed

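The deposited values are estimated counts for each gene, unnormalized; the submitters' processing notes name Salmon, GRCm38 and mm10, and the Salmon version, annotation and strand setting were not given in the sources used here. The kit was NEBNext Ultra II RNA, per the labels' protocols. Estimated counts were rounded (23.1% to 25.1% of values in a library were not whole) and fitted over all genes with edgeR 4.0.16 in R 4.3.3: TMM, filterByExpr with a minimum count of 10, robust quasi-likelihood F test, two-sided, Benjamini-Hochberg adjustment over 14050 genes, threshold 0.05. The SE is the size of the log2 fold change divided by the square root of F. With 2 libraries a group, the smallest exact permutation p is 0.33, so that test was not used. The fit was tested on simulated data with 200 changed genes and the same biological spread for every gene. That setting cannot show how the calls hold when a library is left out. GENCODE M21 gave a symbol for 34652 of 34866 identifiers. Shared 31-mers and exonic overlap were computed from M21. Samples were grouped by their titles.

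Genes were named by rule: every gene of the list, with values in each library for those with an unadjusted p under 0.05 and, in each role, for the 3 others with the highest mean CPM. Values of other genes were added after they were seen. From each related list, the genes past the threshold or else the 3 with the highest mean CPM were named, except 1 gene that is not reported here. The 36 genes, roles and related lists were chosen with earlier results of these data known. Alternatives used DESeq2 1.42.0, limma 3.58.1 (voom), other scalings and filters, removal of mitochondrially encoded genes, unrounded counts, a replicate block and 1 library left out at a time.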

Additional observations from a re-analysis of the deposited data

How the results depend on the processing

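The direction of Eif4ebp1, Mthfd2, Cth, Asns and Psph was the same in all 14 alternatives. The number of response genes that rose was 1 with DESeq2, with and without independent filtering (the metabolic enzymes then numbered 0), and with 1 library left out it ranged from 1 to 5 (enzymes 0 to 4); 0 response genes fell in any alternative. The median log2 fold change of the 36 genes ranged from 0.116 to 0.222 with 1 library left out. Over all genes, DESeq2 gave 27 higher and 39 lower genes, and 23 and 32 without independent filtering. DESeq2 was run on 22122 genes, without the filter on low counts. On the same number of genes without that filter, edgeR gave 84 higher and 128 lower genes. Scaling by library size alone gave 28 lower genes and moved the median of all genes by 0.08 on the log2 scale. With 1 library left out, higher genes ranged from 27 to 280 and lower genes from 17 to 334; a lone library is then assumed to vary like the other group. With the replicate block 75 genes were higher and 97 lower, and 4 response genes rose. Same-numbered libraries did not deviate together (correlation over genes -0.03), so these libraries are taken to share only a number. The cause of these shifts was not tested.

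The sign changed for 18 genes, and 0 of these passed the threshold. Phgdh was at 0.00604 with RLE factors, 0.0708 with library size alone, 0.000764 with DESeq2 in both forms and 0.00808 with the replicate block. Library size alone gave 0.0477 for Nars and 0.0109 for Cebpg, and Stc2 was at -0.00786 without a filter and -0.00575 with limma-voom. With 1 library left out, log2 fold changes ranged from -0.17 to 0.23 for Phgdh, -0.39 to 0.14 for Aldh1l2, -0.14 to 0.24 for Cbs, -0.20 to 0.29 for Slc7a11, -0.0363 to 0.14 for Slc7a3, -0.22 to 0.73 for Slc7a1, -0.0345 to 0.24 for Slc1a4, -0.11 to 0.21 for Aars, -0.0024 to 0.31 for Gars, -0.40 to 0.00343 for Sars, -0.21 to 0.22 for Nars, -0.12 to 0.46 for Cebpb, -0.19 to 0.11 for Cebpg, -0.00394 to 0.68 for Trib3, -0.13 to 0.19 for Sesn2, -0.11 to 0.23 for Vldlr, -0.18 to 0.28 for Stc2 and -0.40 to 0.10 for Ppp1r15a. Atf3 and Trib3, with at most 16 counts in a library, were left out by the filter of 1 CPM.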
